A study of Mus musculus with 24 samples.

Results

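Cathepsins are the proteases that macrophages use to break down protein in their lysosomes, and 10 mouse cathepsin genes (Ctsa, Ctsb, Ctsc, Ctsd, Ctse, Ctsh, Ctsk, Ctsl, Ctss and Ctsz) are described here across 4 states of activation. They were picked out by gene symbol, with earlier results of these data known, with the file's CTSA, CTSB, CTSC, CTSD, CTSE, CTSH, CTSK, CTSL, CTSS and CTSZ as the members, and are 10 of the 18132 genes in the table of normalized intensities. The study asked how macrophages differentiated in culture from bone marrow precursors respond to a beta-adrenergic signal when set against 2 standard cytokine signals. All cells came from Balb/c female mice 8 to 10 weeks old and were kept for 24 h with isoproterenol, with IL-4, with IFN-gamma or with media alone. Isoproterenol is a drug that activates beta-adrenergic receptors, IL-4 is the classical inducer of alternative activation and IFN-gamma that of classical activation. Doses are not given in the sources used here. Each of the 4 groups holds 6 Illumina MouseRef-8 bead arrays, as 3 experiments with 2 arrays each. Nothing in the labels tells if the paired arrays of an experiment came from separate cultures or animals, or what was renewed between experiments. The p-values therefore speak of the spread of these samples alone, and part or all of that spread may be technical.

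Cathepsins reach the lysosome as inactive precursors, mostly through mannose 6-phosphate receptors, and are activated in the acidic compartment. They differ in catalytic mechanism: Ctsd and Ctse are aspartic proteases, Ctsa is a serine carboxypeptidase, and the others are cysteine proteases of the papain family. Some of these cut within a chain (endopeptidases such as Ctsl, Ctsk and Ctss), while others trim its ends (Ctsc, Ctsh and Ctsz). In antigen-presenting cells they also cut the invariant chain and the antigens that MHC class II molecules display, and they are held in check by cystatins and serpins.

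The upstream sequence of 3 members is shown because it holds a motif bound by a factor of these pathways. RefSeq promoter windows on GRCm38.p6 were found for 7 of the 10 genes, and the 250 bases before the annotated start were searched on both strands. The 2 motifs reported are CACGTG (core of the element bound by TFEB, a transcription factor of lysosomal genes) and the element bound by interferon regulatory factors (IRF element, a GAAA pair with 2 bases between). Of 32851 such windows of all genes, 6.02% held CACGTG and 2.98% the IRF element. Capitals mark the match. Ctss has 1 match to the IRF element 21 bases before its start (chr3:95526536-95526785, plus strand). Ctsd has 2 CACGTG matches, 245 and 98 bases before its start (chr7:142387828-142388077, minus strand). Ctsl has 1 CACGTG match 236 bases before its start, inside the annotated span of the gene, shown with its flanks only (chr13:64370738-64370767, minus strand). The windows of Ctsk and Ctsz held neither of these 2, and of the 2 windows of Ctsa 1 held a single CACGTG match 12 bases before the start. A match is a run of letters, and whether a factor binds there was not measured.
Ctss: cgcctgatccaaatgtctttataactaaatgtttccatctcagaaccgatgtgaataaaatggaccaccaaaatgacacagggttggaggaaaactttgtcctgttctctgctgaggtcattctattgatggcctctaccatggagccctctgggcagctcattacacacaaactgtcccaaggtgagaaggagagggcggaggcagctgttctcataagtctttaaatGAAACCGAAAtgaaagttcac
Ctsd: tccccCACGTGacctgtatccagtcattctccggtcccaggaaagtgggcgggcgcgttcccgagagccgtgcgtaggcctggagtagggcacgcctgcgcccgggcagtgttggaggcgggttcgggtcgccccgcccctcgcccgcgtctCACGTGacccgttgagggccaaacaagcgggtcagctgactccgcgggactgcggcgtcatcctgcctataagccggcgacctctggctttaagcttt
Ctsl: gcgttagaagcCACGTGctgatctaaattc

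All 8 macrophage markers examined, among them Csf1r, Cd68 and Adgre1, were above background on all 24 arrays, where background means a normalized intensity under 149.5. None of the 6 fibroblast markers was above it on all arrays of any group. Some markers of other cell types were. The lymphocyte marker Cd79b and Prg2, of mast cells, basophils and eosinophils, were above background on all isoproterenol, IL-4 and media arrays. The other markers of their lists were too dim to test. The dendritic cell marker Ccr7 was above background on 4 or 5 of 6 arrays in each group. All 10 cathepsin genes were above it on every array, so the filter on dim genes removed no member. The macrophage markers summed to 72926 to 76317 per array with isoproterenol, 64913 to 70090 with IL-4, 59590 to 64869 with IFN-gamma and 70390 to 74040 in media. Single markers went both ways: with IFN-gamma Fcgr1 (5.57-fold) and Mertk (2.82-fold) were higher and Csf1r, Cd68, Itgam and Cd14 lower, and with IL-4 3 of the 8 were higher and 2 lower. In RNA of whole cultures, fewer cells of a type and less RNA per cell cannot be told apart. One array, the second of IFN-gamma in experiment 1, stood apart: it correlated at r = 0.978 with its partner (log2, across genes), against 0.9968 to 0.9981 for the other 11 pairs. In experiment 1 all groups shared a slide, whereas the isoproterenol arrays of experiments 2 and 3 lay on other slides than the media arrays of the same experiment, as did the IL-4 and IFN-gamma arrays of experiment 3.

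Fold changes below are ratios of background-corrected values from the log2 scale, fitted with limma on the 12 experiment means, and a gene is called changed at a Benjamini-Hochberg adjusted p under 0.05. With isoproterenol, 2 of the 10 cathepsins were called changed against media, Ctsl higher and Ctse lower, where 1.29% of the 10005 genes tested were called (1.02% higher and 0.27% lower). Over all genes the isoproterenol calls numbered 129, but 12 to 38 without 1 experiment. With slide and experiment as blocks, each combination of them being a block of its own, they numbered 5. With IL-4, 3 were called, Ctsk and Ctsz higher and Ctse lower, against 7.88% of all genes (4.07% higher and 3.81% lower). With IFN-gamma, 7 were called, of which Ctsc and Ctsh were higher and Ctsl, Ctsk, Ctsa, Ctsd and Ctsb lower, against 43.5% of all genes (17.5% higher and 26.1% lower). The 6 arrays of the 2 groups did not overlap for 3 cathepsins with isoproterenol (2.5% of all genes), 2 with IL-4 (6.72%) and 6 with IFN-gamma (26.2%). The median log2 fold change of the 10 genes was -0.01 with isoproterenol, 0.06 with IL-4 and -0.18 with IFN-gamma, beside -0.001, -0.01 and -0.03 over all genes tested. In each of these contrasts some cathepsins were higher and others lower. The median absolute log2 fold change was 0.04 for the cathepsins with isoproterenol, 0.14 with IL-4 and 0.59 with IFN-gamma, beside 0.06, 0.07 and 0.16 for all genes.

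**Figure D1:**
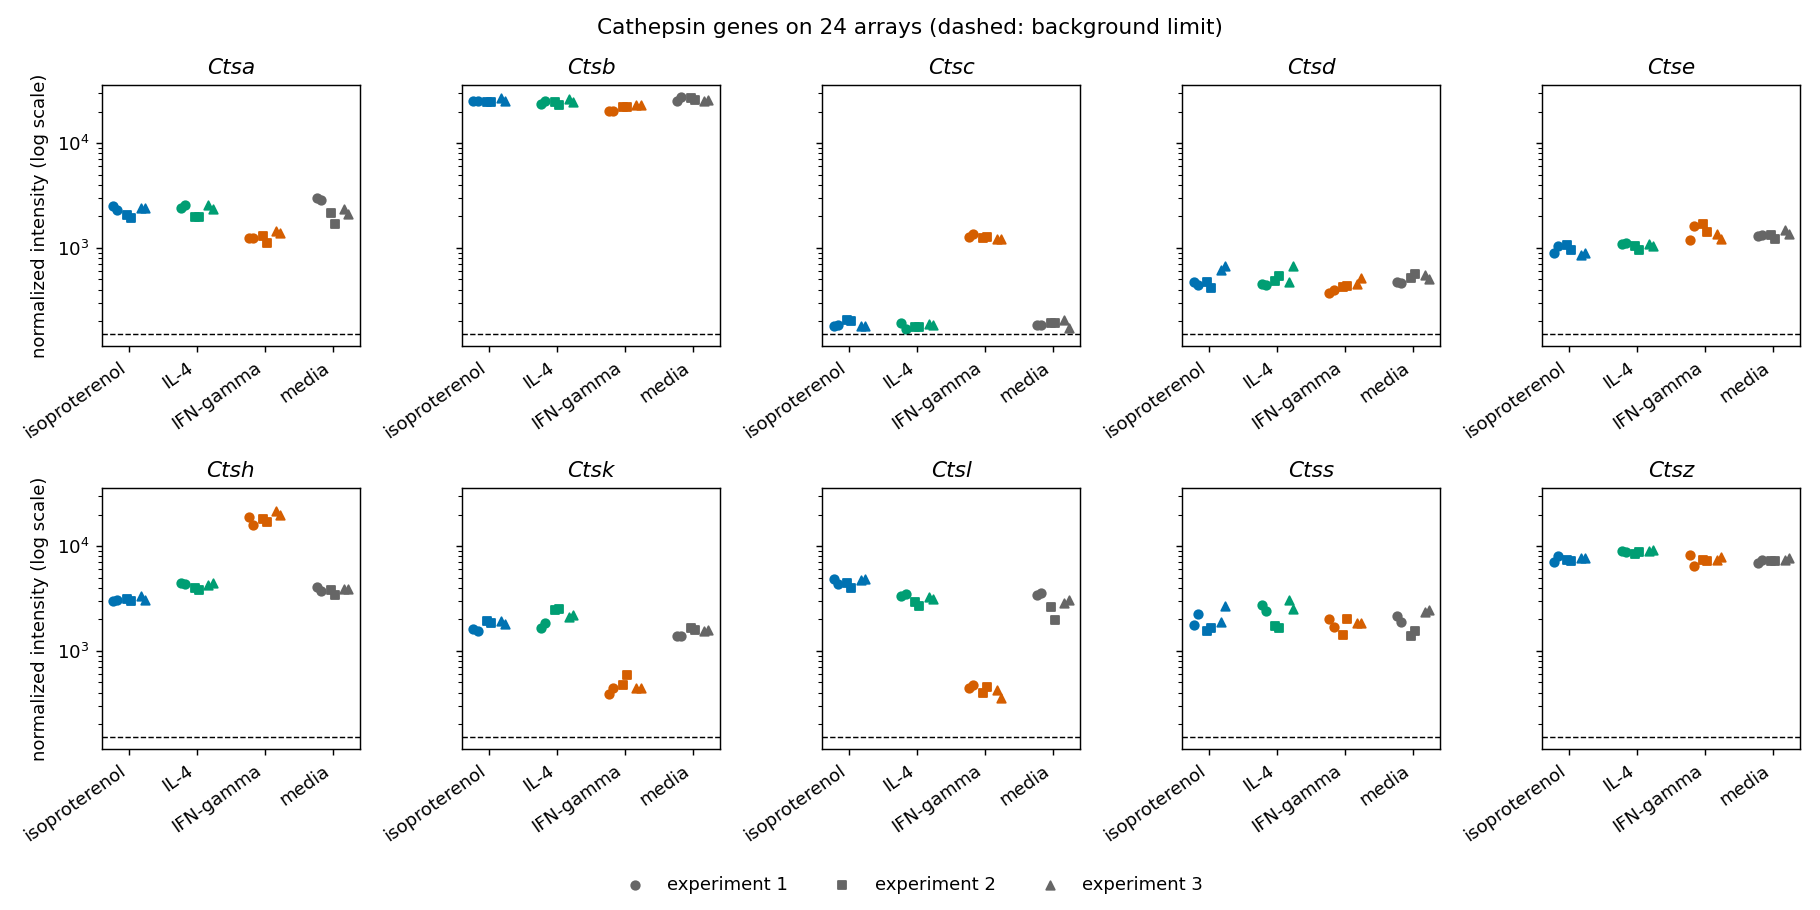
Normalized intensity (log scale) of each cathepsin gene on every array, with isoproterenol, IL-4, IFN-gamma and media from left to right. Symbols mark the 3 experiments with 2 arrays each, and the dashed line is the background limit of 149.5; the IFN-gamma arrays stand above all others for Ctsc and Ctsh and below all others for Ctsl, Ctsk and Ctsa.

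**Figure D2:**
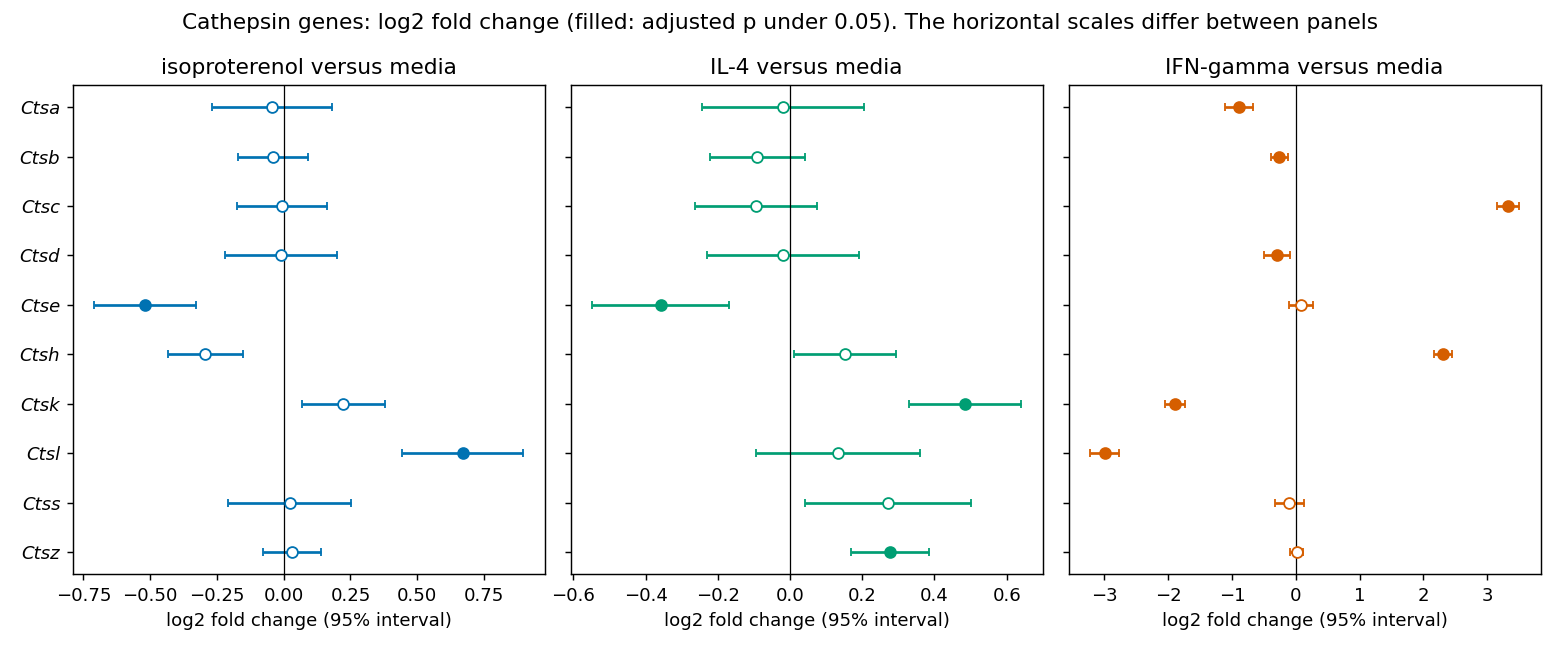
Log2 fold change of each cathepsin gene against media with its 95% interval from the limma fit, for isoproterenol, IL-4 and IFN-gamma from left to right on separate scales. Filled points are called changed: 2 genes with isoproterenol, 3 with IL-4 and 7 with IFN-gamma.

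Ctsc encodes cathepsin C, or dipeptidyl peptidase I, which clips dipeptides from the amino end of proteins and activates the serine proteases of granules. It was read at 178 to 203 with isoproterenol (median 182), at 168 to 193 with IL-4 (median 181), at 1207 to 1368 with IFN-gamma (median 1250) and at 172 to 205 in media (median 188). The IFN-gamma arrays lay far above all the others, while the isoproterenol, IL-4 and media arrays shared 1 narrow range not far above background. Against media Ctsc rose 10.1-fold with IFN-gamma (log2 fold change 3.33 ± 0.08 SE, adjusted p = 7.96e-11), the 50th largest change of all genes tested. The media level lay close to background, and the size depends on the background step: the ratio of mean intensities as deposited was 6.72. Neither isoproterenol (log2 fold change -0.01 ± 0.08, adjusted p = 0.991) nor IL-4 (-0.09 ± 0.08, adjusted p = 0.59) gave a call. Of the neutrophil markers, a cell type rich in this enzyme, S100a8 was higher with IFN-gamma (mean 3857, against 1475 in media), while S100a9 and Mpo were lower and Camp and Ltf were not called. The 5 markers in the table summed to 3915 to 5180 per array with IFN-gamma and to 1841 to 2654 in media, and their part in the result was not tested.

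Ctsh encodes cathepsin H, mainly an aminopeptidase. Its readings were 3009 to 3334 with isoproterenol (median 3087), 3790 to 4480 with IL-4 (median 4315), 15965 to 21679 with IFN-gamma (median 18731) and 3424 to 4037 in media (median 3841). Every IFN-gamma array was above every other array, and every isoproterenol array was below every array of the other 3 groups. Ctsh rose 4.97-fold with IFN-gamma (log2 fold change 2.31 ± 0.06, adjusted p = 4.49e-10). With isoproterenol the log2 fold change was -0.29 ± 0.06 with the same sign in the 3 experiments (-0.36, -0.23 and -0.29), which missed the threshold at an adjusted p of 0.0585. It passed in 3 other fits: without the background step (adjusted p = 0.0365), with arrays unaveraged (0.00155) and without the IFN-gamma array that stood apart (0.044). It was further from the threshold with slide and experiment as blocks (0.196), without the experiment term (0.235), with an offset of 16 (0.108) and without any 1 experiment (0.225 to 0.33). Against IL-4 the isoproterenol cells were lower by a called difference (log2 -0.45 ± 0.06, adjusted p = 0.000904). The IL-4 and media ranges overlapped and gave no call (adjusted p = 0.214).

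Ctsz encodes cathepsin Z (also called X), which removes single residues from the carboxyl end. It ranged over 7122 to 8050 with isoproterenol (median 7510), 8518 to 9259 with IL-4 (median 8891), 6446 to 8185 with IFN-gamma (median 7369) and 6950 to 7794 in media (median 7310). The IL-4 arrays were above all the others, and the remaining 3 groups overlapped. Ctsz rose 1.21-fold with IL-4 (log2 fold change 0.28 ± 0.05, adjusted p = 0.00495), by 0.32, 0.25 and 0.26 in the 3 experiments. The call was lost when any 1 experiment was left out, with adjusted p-values of 0.0584 to 0.118. No call was made with isoproterenol (log2 fold change 0.03 ± 0.05) or with IFN-gamma (0.01 ± 0.05).

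Ctsl encodes cathepsin L, a broad endopeptidase that degrades the invariant chain in thymic epithelium. Its readings were 3996 to 4851 with isoproterenol (median 4590), 2702 to 3490 with IL-4 (median 3208), 353 to 468 with IFN-gamma (median 432) and 1982 to 3612 in media (median 2961). The order of the groups was therefore isoproterenol, IL-4, media and IFN-gamma, where IL-4 and media overlapped and did not differ by a called amount (log2 0.13 ± 0.10, adjusted p = 0.566). Isoproterenol stood above all other arrays and IFN-gamma below them. With isoproterenol Ctsl rose 1.59-fold (log2 fold change 0.67 ± 0.10, adjusted p = 0.0103), the 59th largest change of all genes tested, and it was higher in 3 of 3 experiments (0.39, 0.91 and 0.71). The rise of 0.39 is the one measured within a slide. The call was lost with slide and experiment as blocks (log2 0.67, adjusted p = 0.148), without the experiment term (adjusted p = 0.0904) and without experiment 2 or 3 (0.109 and 0.107). With IFN-gamma the log2 fold change of Ctsl was -3.00 ± 0.10 (adjusted p = 1.91e-09), and the difference between isoproterenol and IFN-gamma, 3.67 ± 0.10 or 12.7-fold, was the widest of the 10 genes between any 2 groups.

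**Figure D3:**
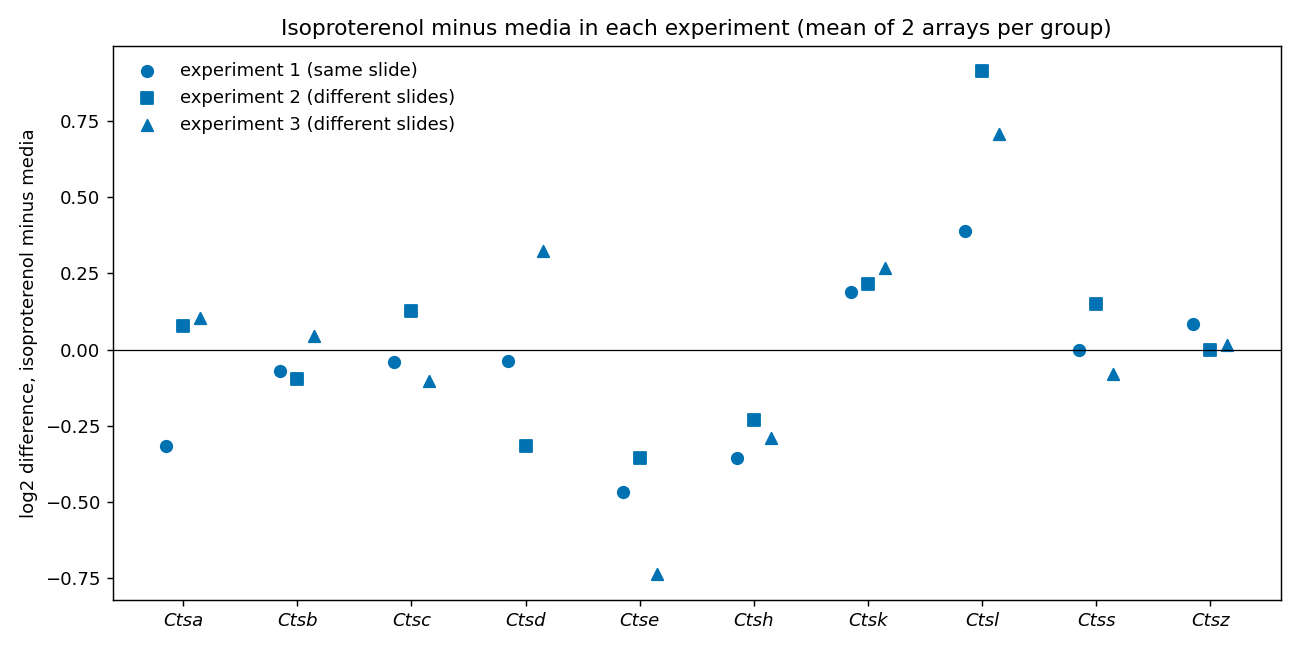
Log2 difference, isoproterenol minus media, for each cathepsin gene in experiments 1, 2 and 3 (symbols), each from the mean of 2 arrays per group; in experiment 1 alone both groups lay on the same slide. Ctsl and Ctsk lie above 0 and Ctse and Ctsh below 0 in the 3 experiments.

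Ctsk encodes cathepsin K, the collagen-degrading endopeptidase best known from osteoclasts, which arise from the same precursors as macrophages. It was read at 1553 to 1916 with isoproterenol (median 1822), 1660 to 2508 with IL-4 (median 2150), 392 to 593 with IFN-gamma (median 443) and 1396 to 1665 in media (median 1557). The IFN-gamma arrays lay below all the others, and the isoproterenol, IL-4 and media ranges overlapped in that the highest media array passed the lowest of the other 2 groups. With IL-4 Ctsk rose 1.40-fold (log2 fold change 0.49 ± 0.07, adjusted p = 0.00128), by 0.34, 0.63 and 0.48 in the 3 experiments. The call was lost without the experiment term (adjusted p = 0.0755). With isoproterenol the log2 fold change was 0.22 ± 0.07 with the same sign in 3 of 3 experiments and no call (adjusted p = 0.195). With IFN-gamma it was lower, at -1.90 ± 0.07 (adjusted p = 3.08e-09).

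Of the 5 osteoclast markers tested, 4 were higher with IL-4 as well, against 4.07% of all genes. These 4 were Mmp9 (1.58-fold), Dcstamp (1.46-fold), Acp5 (1.18-fold) and Ocstamp, which averaged 183.2 with IL-4 and 142.0 in media. Acp5 averaged 187.4 with IL-4 and 169.2 in media, not far above background. The remaining marker tested, Oscar, gave no call (log2 fold change -0.02, adjusted p = 0.911). Ocstamp was above background on 6 of 6 IL-4 arrays and 1 of 6 media arrays, so its fold has no firm size and its call owes its place to the IL-4 arrays. The 6 markers in the table summed to 1228 to 1398 per array with IL-4 and to 1026 to 1116 in media, with the calcitonin receptor gene Calcr above background on no array of either group. Their part in the rise of Ctsk was not tested.

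Ctss encodes cathepsin S, which makes the last cuts in the invariant chain in macrophages and dendritic cells and is active at neutral pH. It was read at 1553 to 2699 with isoproterenol (median 1845), 1670 to 3076 with IL-4 (median 2461), 1428 to 2031 with IFN-gamma (median 1831) and 1385 to 2433 in media (median 2016). All 4 ranges overlapped, and the arrays of experiment 2 were the lowest in the isoproterenol, IL-4 and media groups. No contrast with media was called: the log2 fold change was 0.02 ± 0.10 with isoproterenol (adjusted p = 0.969), 0.27 ± 0.10 with IL-4 (0.165) and -0.10 ± 0.10 with IFN-gamma (0.495). With only the 2 groups in the fit the IL-4 difference was called (adjusted p = 0.0263), and without experiment 2 so was that of IFN-gamma (log2 -0.26, adjusted p = 0.048).

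Ctsb encodes cathepsin B, which can act both within a chain and as a carboxypeptidase. Its readings were 24891 to 27279 with isoproterenol (median 25318), 22949 to 26157 with IL-4 (median 24891), 20317 to 23332 with IFN-gamma (median 22215) and 25033 to 27749 in media (median 25976). Each IFN-gamma array was below each isoproterenol and each media array, and the other groups overlapped. Ctsb was lower with IFN-gamma by a log2 fold change of -0.26 ± 0.06 (adjusted p = 0.00404), a call that was lost without experiment 1 (adjusted p = 0.0876). Ctsb ranked between 13 and 47 in brightness on every array and took only 16 distinct values on 24 arrays, since quantile normalization gives a gene the value of its rank.

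Ctsa encodes cathepsin A, also called protective protein, which trims carboxyl ends and shields beta-galactosidase and neuraminidase in the lysosome. It was read at 1925 to 2498 with isoproterenol (median 2336), 1958 to 2578 with IL-4 (median 2386), 1116 to 1458 with IFN-gamma (median 1278) and 1682 to 3022 in media (median 2256). The IFN-gamma arrays were below all the others, which overlapped. Ctsa fell 1.85-fold with IFN-gamma (log2 fold change -0.89 ± 0.10, adjusted p = 2.84e-05). It gave no call with isoproterenol (-0.04 ± 0.10) or IL-4 (-0.02 ± 0.10).

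Ctsd encodes cathepsin D, the main aspartic protease of lysosomes. It was read at 419 to 666 with isoproterenol (median 472), 444 to 667 with IL-4 (median 481), 372 to 519 with IFN-gamma (median 426) and 464 to 559 in media (median 508). All 4 groups overlapped. Ctsd was lower with IFN-gamma, with a log2 fold change of -0.29 ± 0.10 (adjusted p = 0.0273). The call was lost with the matched probe scaled to the array median (adjusted p = 0.0586), without the experiment term (0.182) and without experiment 1 or 2 (0.19 and 0.0789).

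Ctse encodes cathepsin E, an aspartic protease of endosomes. Its readings were 859 to 1059 with isoproterenol (median 928), 959 to 1107 with IL-4 (median 1066), 1181 to 1711 with IFN-gamma (median 1402) and 1222 to 1480 in media (median 1325). Every isoproterenol and every IL-4 array was below every IFN-gamma and every media array, and the ranges overlapped within each of these pairs. With isoproterenol Ctse fell (log2 fold change -0.52 ± 0.09, adjusted p = 0.0140), lower in 3 of 3 experiments (-0.47, -0.35 and -0.74). With IL-4 it fell too (-0.36 ± 0.09, adjusted p = 0.0266), likewise in 3 of 3 experiments. The isoproterenol and IL-4 cells did not differ by a called amount (log2 -0.16 ± 0.09, adjusted p = 0.304), nor did IFN-gamma and media (0.08 ± 0.09, adjusted p = 0.476). The isoproterenol call was lost with slide and experiment as blocks (log2 -0.47, adjusted p = 0.148) and without any 1 experiment (0.0686 to 0.151). The IL-4 call was lost in the same fits (0.136 for the blocks, 0.0707 to 0.16 without an experiment) and without the IFN-gamma array that stood apart (0.066).

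Between the cytokines all 10 cathepsins were called, 7 higher and 3 lower with IL-4 than with IFN-gamma, against 44.4% of all genes (25.6% higher and 18.8% lower). The 3 lower with IL-4 were Ctsc, Ctsh and Ctse, and the arrays did not overlap for 7 genes (27.5% of all genes). The IL-4 arrays were 8.76-fold higher than those of IFN-gamma for Ctsl, 5.21-fold for Ctsk and 1.83-fold for Ctsa. Smaller differences with overlapping arrays were those of Ctsb (log2 0.17, adjusted p = 0.0377), Ctsd (0.27, 0.0362) and Ctss (0.37, 0.0132). For Ctss the experiments gave 0.478, 0.004 and 0.627. Isoproterenol differed from IFN-gamma in 8 genes (46.4% of all genes), 5 higher (27.1%) and 3 lower (19.4%), and without overlap in 7 (29.1%), with Ctss and Ctsz not called. Isoproterenol differed from IL-4 in 4 genes, 3 of them without overlap (11.1% of all genes, of which 6.54% were higher and 4.61% lower, and 9.8% without overlap). Ctsl was higher with isoproterenol (log2 0.54 ± 0.10, adjusted p = 0.00582), and Ctsh, Ctsk (-0.26 ± 0.07, adjusted p = 0.0352) and Ctsz (-0.24 ± 0.05, adjusted p = 0.00796) were lower. These contrasts share their groups, so their counts are not separate evidence.

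Outside the 10 members the table holds 12 further genes named as cathepsins. Of these Ctsf was above background on all 24 arrays, Ctsg on 21 and Ctsr on 19, and the other 9 on 5 or fewer. Among 7 tested proteases of a list of further cathepsins and lysosomal proteases, 5 were lower and 1 higher with IFN-gamma (median log2 fold change -0.61). The shares of all genes were 26.1% lower and 17.5% higher. None of the 7 was called with isoproterenol (median 0.03) or IL-4 (-0.09). The largest of the falls were those of the cysteine protease gene Ctsf (2.12-fold), the tripeptidyl peptidase gene Tpp1 (1.93-fold), the legumain gene Lgmn (1.63-fold), whose product processes cathepsin precursors, and the dipeptidyl peptidase gene Dpp7 (1.52-fold).

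The natural inhibitors were split. With IFN-gamma 2 of 6 tested were higher and 2 lower (median log2 fold change -0.10), against 17.5% and 26.1% of all genes. Cst7 encodes cystatin F, an inhibitor of cathepsin C among others. It averaged 1021 with IFN-gamma and 163 in media (8.51-fold, adjusted p = 8.12e-07). Only 4 of 6 media arrays were above background, so the size of this fold is not firm. The serpin gene Serpina3g averaged 25670 with IFN-gamma and 147.7 in media, where only 3 of 6 arrays were above background, so its fold has no firm size. Serpinb6a fell 2.14-fold (adjusted p = 3.93e-08) and the cystatin C gene Cst3 fell 1.17-fold (adjusted p = 0.0111). With IL-4 Cst7 was higher (mean 236.7, adjusted p = 0.0486), where its 1.79-fold has no firm size for the same reason. Serpinb6a was 1.16-fold lower with IL-4 (adjusted p = 0.0415). With isoproterenol none of the inhibitors was called.

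Of 13 genes of enzyme sorting to the lysosome and its transcription factors, 3 were higher and 5 lower with IFN-gamma (median log2 fold change -0.14). Over all genes tested, 17.5% were higher and 26.1% lower. The sorting receptor genes Sort1 and Igf2r (the large mannose 6-phosphate receptor) fell 4.11-fold (adjusted p = 2.77e-09) and 2.52-fold (4.24e-07), while M6pr, which encodes the small mannose 6-phosphate receptor, rose 1.25-fold (0.0237). Of the phosphotransferase that adds the mannose 6-phosphate tag, the subunit gene Gnptg fell 1.51-fold while Gnptab rose 1.35-fold. Gnptab was also the one member of this list called with isoproterenol, 1.31-fold higher (adjusted p = 0.0196), and none was called with IL-4. The isoproterenol call of Gnptab was lost with slide and experiment as blocks (0.247), without the experiment term (0.149) and without any 1 experiment (0.0948 to 0.209).

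Of 11 genes of MHC class II loading, H2-Ob was too dim to test, and H2-Oa was above background on the 6 IFN-gamma arrays alone and so passed the filter only through the group where it was high. The other 9 were called higher with IFN-gamma (17.5% of all genes), with H2-DMb1 at 10.6-fold, the transactivator gene Ciita at 9.14-fold, H2-Eb1 at 7.52-fold and H2-Ab1 at 4.61-fold. With IL-4, 5 of the 10 tested were higher (4.07% of all genes) and none lower (3.81%), led by H2-DMb1 at 2.37-fold and Ciita at 1.82-fold. H2-Oa is counted in these 10 and was not called. With isoproterenol the median, H2-Oa included, was -0.44 and 1 gene was called, H2-DMb1, at 1.93-fold lower (adjusted p = 0.0447). That call was lost without the background step (0.0617), with slide and experiment as blocks (0.191), without the experiment term (0.445) and without any 1 experiment (0.0956 to 0.185).

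**Figure D4:**
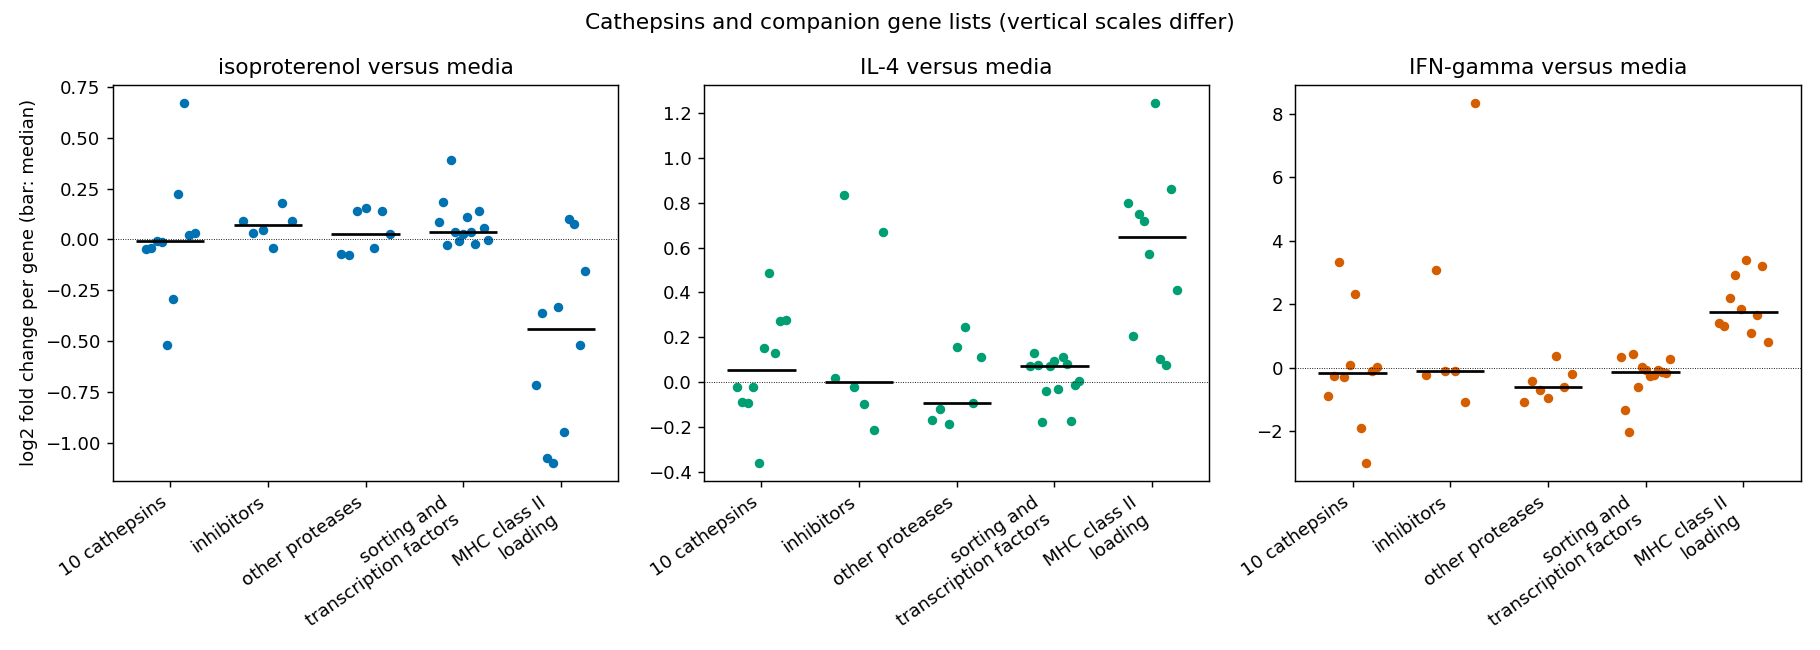
Log2 fold change against media of each tested gene (points) with the median of its list (bars), for isoproterenol, IL-4 and IFN-gamma from left to right, on separate vertical scales. The 10 cathepsins spread to both sides of 0 with IFN-gamma, while the tested genes of MHC class II loading, which passed a filter on dim genes, lie above 0. H2-Oa, among them, passed it only through the IFN-gamma arrays.

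The genes whose levels moved most like a cathepsin were sought for the 3 members with the widest range of group means, Ctsl (3.67 on the log2 scale), Ctsc (3.43) and Ctsh (2.61). Likeness is Pearson's r over the 12 experiment means, which share 3 experiments and 4 activators, and is given as a description. For Ctsl it was Cdk20 (r = 0.9974) and Dtx4 (0.9924). For Ctsc it was Timd4 (0.9983), Upp1 (0.9978) and Cxcl9 (0.9974), and for Ctsh Gvin1 (0.9964), Pml (0.9964) and Psme1 (0.9962). These values rest largely on the distance of IFN-gamma from the rest: over the 9 means without it r was 0.48 for Timd4, -0.19 for Upp1 and 0.26 for Cxcl9. It was 0.81 to 0.89 for Dtx4, Gvin1, Pml and Psme1.

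Cdk20, a kinase gene listed under its older name Ccrk, kept r = 0.986 over the 9 means without IFN-gamma. In the RefSeq annotation it is the next protein-coding gene after Ctsl on chromosome 13, on the opposite strand and not overlapping it. It averaged 965.8 ± 61.9 with isoproterenol, 799.2 ± 37.2 with IL-4, 285.4 ± 6.4 with IFN-gamma and 745.4 ± 93.8 in media (SD, n = 3 experiments). It rose with isoproterenol (log2 fold change 0.42, adjusted p = 0.0337) and fell 3.11-fold with IFN-gamma (adjusted p = 2.85e-08), as Ctsl did. Its isoproterenol call was lost with slide and experiment as blocks (0.36), without the experiment term (0.12), with an offset of 16 (0.0691), with only the 2 groups in the fit (0.0511) and without experiment 2 or 3 (0.33 and 0.299). The probes behind its value are not given in the sources used here, so whether they also read Ctsl transcripts was not tested.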

How the data were processed

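Per the labels, RNA was hybridised to 24 Illumina MouseRef-8 arrays; the 2 deposited tables hold linear intensity. Per the submitters' processing notes they were read with GenomeStudio, version not given in the sources used here. Of the deposited tables, the normalized intensities of 18132 genes were used, and their sorted values show quantile normalization (coefficient of variation under 1% in 98.9% of ranks) without background subtraction. The non-normalized intensities as deposited cover 25697 probes without gene names, and 5 of the 10 members could be matched to 1 of them.

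The normalized intensities were corrected with the normexp model of limma 3.58.1 in R 4.3.3 (offset 50, background fitted by the model) and taken to log2. Apart from that step, a limit of 149.5 was set 1.645 SD over the mode of the normalized intensities (137.5). The 10005 genes that passed it on 6 or more arrays were tested. The 2 arrays of an experiment and activator were averaged to 12 values and fitted by group and experiment in limma (empirical Bayes, prior df 4.94, residual df 6), with 6 two-sided contrasts, Benjamini-Hochberg adjusted over all genes tested. Precision is limited by how few arrays there are. Experiment numbers come from the labels and mark a shared experiment. Deviations from the group mean correlated at 0.026 to 0.777 over 18 pairs of groups in the same experiment. This overlaps with the -0.753 to 0.515 of 36 pairs from different experiments. The deviations of a group sum to 0 over its experiments, which pushes the second range down when the first is positive. The ranges are thus not separate measures of a shared experiment.

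Symbols were brought to RefSeq names (17210 matched). Named were all members, up to 4 called genes of each list by size, and for 3 members the 3 most similar genes, with 1 gene and 1 promoter motif not reported here; neighbours and further cathepsins were added after their values were seen. The members and lists were chosen with earlier results of these data known. Scripts were tested on simulated data. Alternatives covered background step, filter, averaging, blocks, samples, scaling, fold and left-out experiments.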

Additional observations from a re-analysis of the deposited data

Results flagged for a closer look

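Of 40 sets of 6 arrays (10 genes in 4 groups), 1 held a value far from the others, where chance gives about 1 in 20. It was Ctsb with isoproterenol in experiment 3, replicate 1, at 27278.8, against 24891.2 to 25407.3 on the other 5 arrays. The gap to the nearest array was 0.784 of the range of the group, above Dixon's 95% critical value for 6 arrays. Among media arrays Ctsb reached 27748.8. Ctsb gave no call between isoproterenol and media.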

How the results depend on the processing

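No member changed direction among called results under any alternative run. The counts of called cathepsins against IFN-gamma kept within 1.5 times of the values above in every setting but 1: with a 1.5-fold minimum, IL-4 against IFN-gamma gave 5. Isoproterenol against media was the least stable: 4 were called on 24 unaveraged arrays, 3 without the background step and 3 without the IFN-gamma array that stood apart, 1 without the replicate block (experiment left out), 0 with slide and experiment as blocks, 0 to 1 when an experiment was left out, and 1 with a 1.5-fold minimum. IL-4 against media gave 1 whichever experiment was left out, 2 with the replicate block dropped and 0 with a 1.5-fold minimum. Isoproterenol against IL-4 gave 2 without an experiment and 0 with a 1.5-fold minimum. Dropping the replicate block also left IFN-gamma against media at 6. The cause of these changes was not tested, except that leaving out an experiment removes 4 of the 12 values. In the fit with slide and experiment as blocks, each combination of slide and experiment was a block of its own. Isoproterenol against media therefore took no weight from slide 3, which pairs isoproterenol of experiment 2 with media of experiment 3. There, isoproterenol minus media, across 2 experiments, was largest for Ctss (-0.59, with no call in the fit), then 0.52 for Ctsl, -0.52 for Ctse, -0.35 for Ctsh and -0.29 for Ctsd. Closeness to background limits the size of the Ctsc change: its log2 fold change with IFN-gamma was 2.75 without the background step and 3.78 with an offset of 16.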

Other observations

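Neighbouring genes of the members were looked up in the RefSeq annotation after their values were seen. Pltp, which encodes a phospholipid transfer protein and lies next to Ctsa, averaged 528.4 ± 137.5 with IFN-gamma and 1212.6 ± 593.6 in media (SD, n = 3), a fall of 1.25 on the log2 scale (adjusted p = 0.000188). Its level followed that of Ctsa over the 12 experiment means (r = 0.953, a description). Rab7b, next to Ctse, was lower with IL-4 (log2 fold change -0.33, adjusted p = 0.00737) and gave no call with isoproterenol (-0.13, adjusted p = 0.476), where Ctse was lower in both. Of the neighbours of Ctsh, Morf4l1 gave no call with IFN-gamma (0.17, adjusted p = 0.0593) and Rasgrf1 was higher (0.37, adjusted p = 0.0034, r = 0.871 with Ctsh). Rasgrf1 averaged 157.6 with IFN-gamma. Its means in media (137.6), with isoproterenol (136.1) and with IL-4 (142.3) were below the background limit. Its fold therefore has no firm size, and its call and r rest largely on the IFN-gamma arrays. Rab38, next to Ctsc, was higher with IFN-gamma (0.35, adjusted p = 0.000388, r = 0.805 with Ctsc). It averaged 188.4 with IFN-gamma and 163.1 in media, both near background, so its fold has no firm size either. Prxl2c, next to Ctsl, was lower with IFN-gamma (-0.43, adjusted p = 0.000673, r = 0.833 with Ctsl) and gave no call with isoproterenol (-0.11, adjusted p = 0.677). Not every neighbour moved as its cathepsin did. Nelfcd, next to Ctsz, was higher with IFN-gamma (0.29, adjusted p = 0.000857, r = -0.613 with Ctsz), where Ctsz gave no call. Next to Ctsd, which was lower, Ifitm10 was higher (0.27, adjusted p = 0.0238) and Syt8 lower (-0.35, adjusted p = 0.00065), both near background. Of all genes tested, 43.5% were called with IFN-gamma. Ctsk and Ctss lie side by side on chromosome 3: with IFN-gamma Ctsk fell by 1.90 on the log2 scale, while Ctss gave -0.10 with no call.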
